A study of Mus musculus with 8 samples.

Results

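Of the 65316 genomic regions bound by Ezh2 in both replicates of the mouse blood progenitor line EML_C1, 64880 were less than 3000 bp wide, and 1159 of these (1.79%) touched both a region of the histone mark H3K27me3 and a region bound by Runx1. These 1159 triple regions are described here. They were found by merging the 2 peak lists of each antibody, keeping merged regions to which both replicates contributed, and asking for at least 1 bp of overlap. The members were therefore selected on the measured peaks of all 3 antibodies, and their number and their overlap are descriptions without a test. A further 57216 Ezh2 regions lay in the mark without Runx1, 500 touched Runx1 without the mark, and 6005 touched neither.

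EML_C1 belongs to a mouse bone marrow line that grows in stem cell factor and can form several blood lineages. The labels give the strain C57BL/6 and passage 4-5, and every library came from cells grown in the same medium with mSCF (mouse stem cell factor), so the study holds no genotype, treatment or time contrast. Chromatin was immunoprecipitated with antibodies to Ezh2, H3K27me3 and Runx1, with 2 replicates each, and sequenced. The Ezh2 and Runx1 samples received the protein crosslinker DSG before formaldehyde and shared 1 input, whereas the H3K27me3 samples received formaldehyde alone and had an input of their own. A feature that fixation or input gives to both Ezh2 and Runx1 and binding at the same place cannot be told apart in this design. The labels do not say that replicates were separate cultures, and a spread between them may be technical. With 2 libraries per antibody no comparison was tested. Peak lists hold no expression values, so the labelled cell type was not checked against marker genes.

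Ezh2 is the catalytic subunit of Polycomb repressive complex 2, which methylates lysine 27 of histone H3, and the trimethylated form, H3K27me3, marks silent or poised genes. In mammals the complex gathers at CpG-rich promoters of developmental genes. Runx1 is a DNA-binding factor required for the first blood stem cells and for lymphoid and platelet lineages, and it binds the core motif TGTGGT, less strongly TGCGGT, with its partner Cbfb as activator or repressor.

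The promoters touched by these regions were mostly rich in CpG. Like most promoters of any kind they mostly lacked the Runx1 core motif, and sequences with and without it are shown. The members touched 408 of 21263 RefSeq promoter windows (1.92%), each reaching 250 bases before to 50 bases after a transcript start on GRCm38.p6. In 242 of them the strongest Runx1 summit of both replicates fell inside the window, and 20 of the 242 held TGTGGT on either strand (8.26%, against 14.97% of all windows) while 222 did not. The following 3, the motif-bearing ones with the highest mean Runx1 fold, are the promoters of Iffo2 (chr4:139574470-139574769, plus strand), Ano10 (chr9:122294374-122294673, minus strand) and Tbc1d8 (chr1:39478706-39479005, minus strand), with the motif or its reverse complement ACCACA in capitals.
Iffo2: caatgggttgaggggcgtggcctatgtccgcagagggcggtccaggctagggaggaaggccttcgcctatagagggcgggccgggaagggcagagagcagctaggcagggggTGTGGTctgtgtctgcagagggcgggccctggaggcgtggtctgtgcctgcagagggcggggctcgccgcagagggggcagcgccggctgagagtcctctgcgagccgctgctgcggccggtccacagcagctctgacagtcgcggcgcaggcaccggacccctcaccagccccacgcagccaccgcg
Ano10: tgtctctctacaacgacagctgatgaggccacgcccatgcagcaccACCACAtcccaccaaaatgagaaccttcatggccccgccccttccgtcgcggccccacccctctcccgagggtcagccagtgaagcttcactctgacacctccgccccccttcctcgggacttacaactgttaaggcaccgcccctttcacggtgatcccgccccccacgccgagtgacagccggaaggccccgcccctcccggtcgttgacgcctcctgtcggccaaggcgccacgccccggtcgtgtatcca
Tbc1d8: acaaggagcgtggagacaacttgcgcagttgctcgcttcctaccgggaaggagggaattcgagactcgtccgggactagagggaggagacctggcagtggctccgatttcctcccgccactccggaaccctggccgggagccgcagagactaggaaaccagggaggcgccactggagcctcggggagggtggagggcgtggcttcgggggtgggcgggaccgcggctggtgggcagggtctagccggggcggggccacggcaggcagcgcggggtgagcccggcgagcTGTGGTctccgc

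Iffo2 encodes a protein of the intermediate filament family, Ano10 a protein of the anoctamin family of channels and scramblases, and Tbc1d8 a protein with a Rab GTPase-activating domain. At Iffo2 the Runx1 summit lay 195 and 186 bp before the transcript start in replicates 1 and 2 and the motif begins at base 113 of the window. At Ano10 the Runx1 summit lay 122 and 193 bp before the start and the motif begins at base 47. At Tbc1d8 the Runx1 summit lay 23 and 46 bp before the start, on the upstream side of the motif at base 289. The Tbc1d8 member spans chr1:39477959-39478709, so its motif and both Runx1 summits lay outside the Ezh2 region. Its H3K27me3 q-values were 0.159 and 0.826. The Iffo2 member centred downstream of the start began at chr4:139574607, so the motif and both Runx1 summits lay outside that Ezh2 region too.

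The next 3 are promoters with the Runx1 summits of both replicates but without TGTGGT, shown because this was the common form and chosen for the highest mean Ezh2 fold, with every CG in capitals: Itsn1 (chr16:91729121-91729420, plus strand), Sgk1 (chr10:21994416-21994715, plus strand) and Fam135a (chr1:24100292-24100591, minus strand).
Itsn1: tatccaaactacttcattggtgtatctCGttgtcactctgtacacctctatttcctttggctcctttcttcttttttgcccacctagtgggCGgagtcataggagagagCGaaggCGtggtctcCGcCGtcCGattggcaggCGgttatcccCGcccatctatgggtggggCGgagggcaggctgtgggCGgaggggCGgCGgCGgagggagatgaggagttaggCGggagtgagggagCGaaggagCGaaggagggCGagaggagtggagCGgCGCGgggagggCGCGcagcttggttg
Sgk1: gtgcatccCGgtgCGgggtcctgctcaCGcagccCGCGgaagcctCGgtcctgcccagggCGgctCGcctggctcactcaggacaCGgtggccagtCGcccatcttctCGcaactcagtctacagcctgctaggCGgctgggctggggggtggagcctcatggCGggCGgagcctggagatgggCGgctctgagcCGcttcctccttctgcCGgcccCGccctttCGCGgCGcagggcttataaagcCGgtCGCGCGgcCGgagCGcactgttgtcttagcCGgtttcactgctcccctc
Fam135a: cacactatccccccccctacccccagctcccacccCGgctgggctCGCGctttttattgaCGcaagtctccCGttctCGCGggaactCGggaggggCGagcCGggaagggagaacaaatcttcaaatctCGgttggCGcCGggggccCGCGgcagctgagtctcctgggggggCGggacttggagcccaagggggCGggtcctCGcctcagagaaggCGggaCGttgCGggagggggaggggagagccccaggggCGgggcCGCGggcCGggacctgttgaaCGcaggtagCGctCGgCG

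Itsn1 encodes the endocytic scaffold intersectin and Sgk1 a kinase induced by serum and glucocorticoids. The windows hold 23 CG at Itsn1, 28 at Sgk1 and 29 at Fam135a, and their GC content is 61.7%, 69.7% and 70.7%. Runx1 summits lay 100 and 99 bp before the start of Itsn1 and 43 and 95 bp before that of Sgk1, and 26 and 3 bp after that of Fam135a. The Ezh2 summits lay outside these windows, 645 and 647 bp after the start of Itsn1, 514 and 457 bp before that of Sgk1, and 334 and 305 bp after that of Fam135a.

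Over all 408 promoter windows touched by members, the median GC content was 67.3%, against 57.2% in the 1236 windows touched by Ezh2 regions with the mark and no Runx1 and 56.3% in all windows. Counting a window as CpG-rich where its observed over expected CpG ratio was at least 0.6 and its GC content at least 50%, 78.4% of the members' windows were CpG-rich. The share was 35.7% in the mark without Runx1, 90.5% at Ezh2 and Runx1 without the mark, 78.9% of the 8158 windows with Runx1 and no Ezh2, and 45.2% of all windows. In the share of CpG-rich windows the members' promoters thus stood beside Runx1 promoters without Ezh2, and apart from marked Ezh2 promoters that lacked Runx1. In median GC content they lay nearer to windows with Ezh2 and Runx1 without the mark (69%) than to those with Runx1 and no Ezh2 (62.3%).

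**Figure D1:**
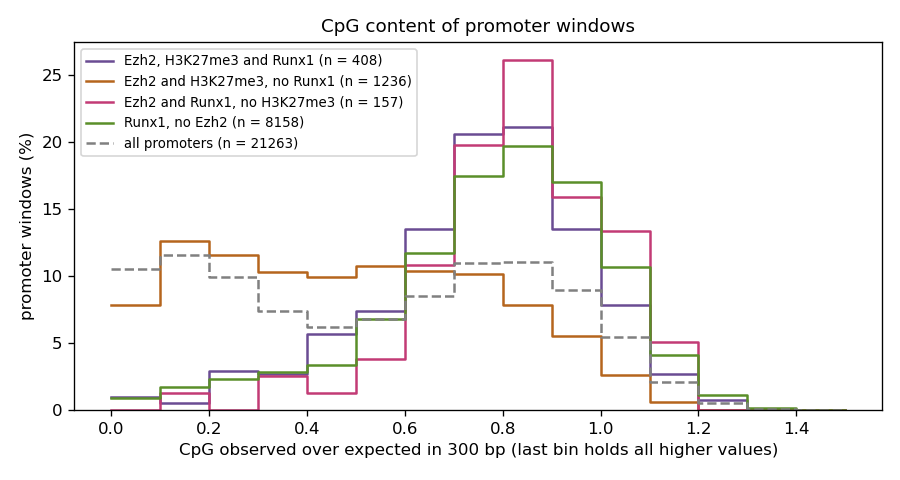
Share of promoter windows (y axis, percent) by observed over expected CpG ratio in the 300 bp window (x axis, bins of 0.1), with 1 line per set of windows. The windows of regions with Ezh2, H3K27me3 and Runx1 (n = 408) have a median of 0.772, against 0.482 where Ezh2 and the mark lacked Runx1 and 0.567 in all promoters.

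The letters TGTGGT were found in 10.5% of the members' windows, 12.4% of windows in the mark without Runx1, 8.28% at Ezh2 and Runx1 without the mark, 13.3% with Runx1 and no Ezh2, and 14.97% of all windows. The longer form TGTGGTT was in 2.70% of the members' windows and 4.71% of all windows. The variant TGCGGT was in 13.7% of the members' windows and 7.44% of all windows. Base composition moves with these shares: among windows of 60 to 70% GC, TGTGGT was in 10.8% of 176 members' windows and 11.2% of 5635 windows in all. In the same GC range, TGCGGT was in 14.2% of the members' windows and 10.8% of all. The ETS-type word CCGGAAG was in 8.82% of the members' windows, 23.4% of windows with Runx1 and no Ezh2, and 11.6% of all windows, and at 60 to 70% GC the values were 11.4%, 26.9% and 19.6%. All words were searched on both strands, TGTGGTT contains TGTGGT, and a match is a description and not a bound site.

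The members were wider than other marked Ezh2 regions and were common among wide ones. Their width ran between 207 and 2998 bp with a median of 958 bp and quartiles of 552 and 1687 bp, against a median of 478 bp for Ezh2 regions in the mark without Runx1. Of Ezh2 regions under 300 bp, 0.478% were members. The share was 0.735% at 300 to 499 bp, 1.58% at 500 to 999 bp, 7.18% at 1000 to 1999 bp and 22.7% at 2000 to 2999 bp. A wider region has more bases to meet the other peaks by the rule, so this rise is a description. Beyond the limit, 140 of 436 Ezh2 regions of at least 3000 bp (32.1%) touched both. Just inside it lay regions beside Mast1 (2998 bp), St14 (2998 bp) and C1ql1 (2994 bp), with mean Ezh2 folds over input of 12.4, 4.08 and 4.35. Just outside lay regions nearest Arid3c (3007 bp), Tgm2 (3010 bp) and Acer2 (3063 bp), with Ezh2 folds of 16.6 and 15.3, 4.19 and 3.41, and 13.8 and 8.37 in the 2 replicates.

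The number of members depended on the q asked for and on single libraries. Keeping peaks of q at most 0.01 in every list gave 119 members and at most 1e-05 gave 15. An overlap of 100 bp or of 50% of the shorter region gave 1083 and 945 members, and leaving out H3K27me3 replicate 1 or 2 gave 1030 and 1279. From the lists of replicate 1 alone the rule gave 3805 members and from those of replicate 2 alone 1759. Leaving out Runx1 replicate 2 gave 2233 members, 3.44% of the Ezh2 regions, since Runx1 regions then needed no second list. Leaving out Ezh2 replicate 1 or 2 enlarged the set of Ezh2 regions, of which 0.883% and 0.932% were members.

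The 3 antibodies met on the same bases in most members, but not in all. A member shared a median of 341 bp, or 38.2% of its width, with Runx1 regions, and 1106 members met 1 Runx1 region while 53 met several. In 1081 members (93.3%) some bases lay under all 3 merged regions, with a median of 322 such bases. In the other 78 members Runx1 and the mark touched the Ezh2 region at separate places, and 29 members shared under 50 bp with Runx1. The strongest Runx1 summit lay inside the mark in 83.3% of 1143 members in replicate 1 and 82.5% of 1145 in replicate 2. It lay inside the Ezh2 region in 82.6% and 81.3%. The median distance between the Ezh2 and Runx1 summits was 169 and 202 bp in members, against 180 and 201 bp where Ezh2 and Runx1 met without the mark. The difference was small and of opposite direction in the 2 replicates, and the SD of the members' medians was 23.3 bp (n = 2).

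Members lay near gene ends far more often than marked Ezh2 regions without Runx1. The centre was within 1 kb of either end of a protein-coding gene in 430 members (37.1%), against 5.74% of Ezh2 regions in the mark without Runx1, 48.6% of those with Runx1 and no mark, and 6.49% of all Ezh2 regions under 3000 bp. From the lists of 1 replicate number the share was 23.4% ± 5.53 for members and 5.06% ± 0.0267 in the mark without Runx1 (SD, n = 2), so the difference was larger than the spread between replicates. Without Runx1 replicate 2 the members' share was 22.0%. Over 50 kb from any gene end lay 12.5% of members and 24.6% of marked Ezh2 regions without Runx1, and 62.4% and 49.4% lay inside a gene.

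The difference stood at every width. Under 300 bp, 10.5% of 38 members and 4.09% of marked Ezh2 regions without Runx1 were within 1 kb of a gene end. At 500 to 999 bp the shares were 28.5% and 6.00%, and at 2000 to 2999 bp they were 58.5% and 22.0%. In each of the 5 width bins the members' share was at least 2 times as high. The Ezh2 regions with Runx1 and no mark had higher shares than members in every bin with at least 20 of them.

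**Figure D2:**
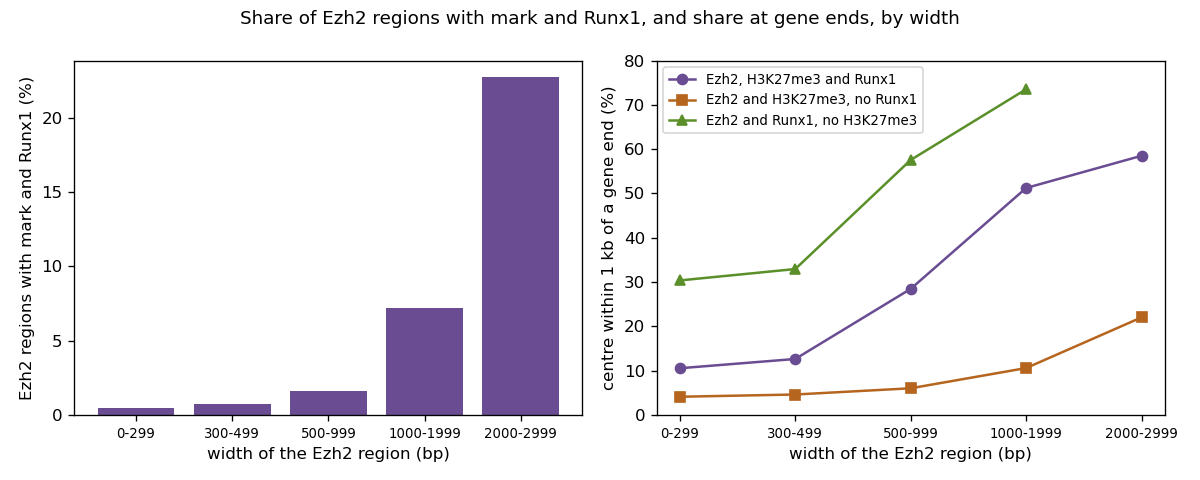
Left, share of Ezh2 regions in both replicates that also touch H3K27me3 and Runx1 (y axis, percent) by width of the Ezh2 region (x axis, bp); right, share with a centre within 1 kb of a protein-coding gene end (y axis, percent) for 3 classes of Ezh2 region, with points where a bin holds at least 20 regions. The left bars reach 22.7% in the widest bin, and the right line of regions with all 3 lies above that of marked regions without Runx1 in all bins.

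The gene end that members met was mostly the start. Of 21887 protein-coding genes, 520 (2.38%) had 485 members within 1 kb of an end, and 62 members lay at ends of several genes. Here and in the gene lists a member counted where any of its bases lay within 1 kb, whereas the 430 members above were counted by their centre. Strand was known for 418 of the 520 genes, and 391 of these (93.5%) were met at the start end. The same share was 73.3% for marked Ezh2 regions without Runx1 and 95.3% for Ezh2 and Runx1 without the mark.

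Around transcript starts the median Runx1 summit lay upstream and the median Ezh2 summit downstream. Of 1131 members on chromosomes with listed starts, 368 (32.5%) were centred within 1 kb of one. Their strongest Runx1 summit lay at a median of 43 and 52 bp upstream of the start in replicates 1 and 2, and 34.2% and 33.8% of Runx1 summits were downstream. Their strongest Ezh2 summit lay at a median of 151 and 154.5 bp downstream, and 72.8% and 73.6% of Ezh2 summits were downstream. Within a member the Ezh2 summit was a median of 132 and 194 bp further downstream than the Runx1 summit. Taken member by member, Ezh2 was downstream and Runx1 upstream in 42.4% of 363 and 44.1% of 367 members, the reverse held in 3.86% and 4.09%, and both summits were on the same side in 53.7% and 51.8%.

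Other regions showed how far this arrangement is shared. Where Ezh2 and Runx1 met at a start without the mark, the Ezh2 summit lay 188 and 175 bp downstream and the Runx1 summit 24.5 and 42 bp upstream (medians, 217 regions). In 1831 Ezh2 regions centred within 1 kb of a start that touched the mark but no Runx1 region, the median Ezh2 summit was 83 and 82 bp downstream. In 7555 Runx1 regions at starts and without Ezh2 the median Runx1 summit was 25 and 28 bp upstream. In the 265 members of at least 1000 bp the Ezh2 summit was 192 and 224 bp further downstream than Runx1, and in the 103 narrower ones 59 and 74.5 bp, with both replicates on the same side. The median order of the summits was thus the same in narrow and in wide members, at different distances.

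**Figure D3:**
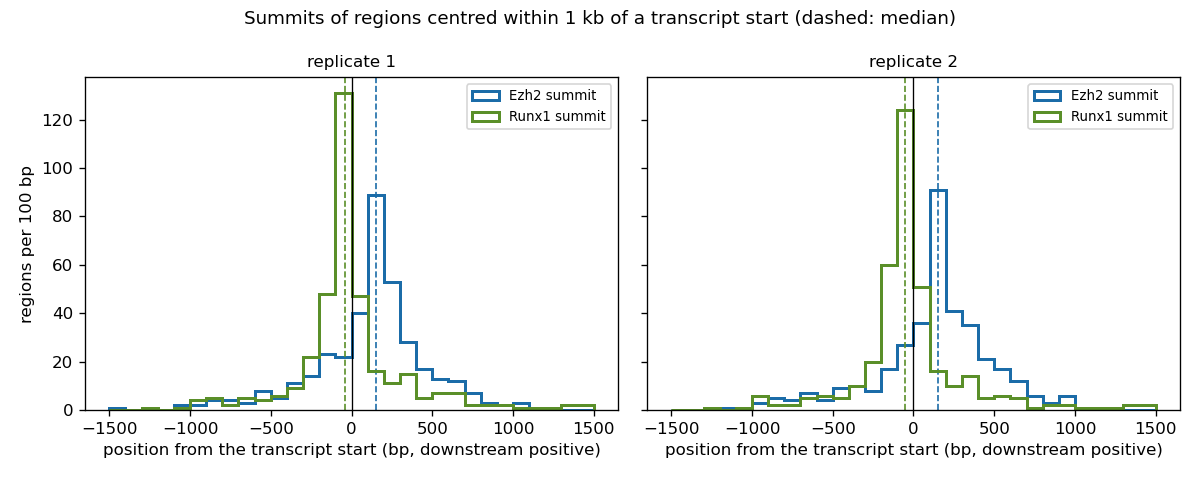
Number of regions per 100 bp (y axis) by position of the strongest Ezh2 and Runx1 summit relative to the transcript start (x axis, bp, downstream positive), 1 panel per replicate, for the 368 regions centred within 1 kb of a listed start; dashed lines mark medians. The Runx1 medians lie 43 and 52 bp upstream and the Ezh2 medians 151 and 154.5 bp downstream.

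The mark around members was wider than H3K27me3 regions in general and narrower than around marked Ezh2 regions without Runx1. Members also reached out of it more often than those regions. A wider H3K27me3 region has more bases for an Ezh2 region to meet, so the width against all H3K27me3 regions is a description. The H3K27me3 region touched by a member had a median width of 5704 bp, against 7114 bp for Ezh2 regions in the mark without Runx1 and 1654 bp for all 110650 H3K27me3 regions. Among members 62.5% lay wholly inside the mark, against 84.8% of marked Ezh2 regions without Runx1, and in the width range of 500 to 1500 bp the shares were 61.9% and 85.1%. The members touched 1082 different H3K27me3 regions, of which 1008 held 1 member, 69 held 2, 4 held 3 and 1 held 4.

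The 5 H3K27me3 regions with 3 or 4 members lay at Tle2, a Groucho-type corepressor, at Id3, an inhibitor of helix-loop-helix factors, at the ephrin receptor gene Epha2, at the adhesion gene Mpzl2 and at a place on chromosome 7 without a gene within 1 kb of the members. At Id3 the mark covered 17456 bp (chr4:136131663-136149118, mm10), with members of mean Ezh2 fold between 3.20 and 8.42 and, where both replicates had a peak, mean Runx1 fold between 12.2 and 24.9. At Mpzl2 it covered 22049 bp (chr9:45023208-45045256), and its 4 members had mean Ezh2 folds between 2.80 and 3.86. Neighbouring members here can share a Runx1 peak and share the value of the broad peak, so they are not independent.

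The folds given are those of the authors' peak caller for each peak, as linear ratios over input, and a member takes its strongest peak of each list. The Ezh2 fold of members had a median of 3.44 and 2.88 in replicates 1 and 2, against 2.68 and 2.58 for marked Ezh2 regions without Runx1. It was at least 10 in 65 and 22 members, or 5.61% and 1.90%, against 0.0909% and 0.0280% of marked regions without Runx1. The H3K27me3 fold had a median of 2.48 and 2.2, against 2.41 and 2.22 without Runx1, a small difference of opposite direction in the 2 replicates. The SD of the members' medians was 0.200 (n = 2). The gap in Ezh2 fold had the same direction in both replicates, was smaller in replicate 2, and moved with width. The SD of the members' median Ezh2 folds was 0.393 (n = 2), which is a spread of their level and not of the gap. In regions of 300 to 499 bp the median Ezh2 fold was 2.62 and 2.43 in members and 2.59 and 2.51 without Runx1, and at 500 to 999 bp it was 2.91 and 2.48 in members and 2.78 and 2.60 without Runx1. At 1000 to 1999 bp it was 4.34 and 3.44 in members and 3.29 and 3.03 without Runx1, and at 2000 to 2999 bp 7.40 and 5.58 in members and 4.47 and 3.89 without Runx1. Higher Ezh2 folds in both replicates were thus seen in members of at least 1000 bp. The Runx1 fold had a median of 4.40 and 4.85, against 5.30 and 6.16 at Ezh2 regions with Runx1 and no mark. Leaving out Runx1 replicate 2 lowered the members' median Runx1 fold to 2.69, against 4.62 as the mean of both replicates.

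Members near genes had the higher folds. With a centre within 1 kb of a gene end the median Ezh2 fold was 4.63 and 3.46 and the median Runx1 fold 6.01 and 6.37. Farther away the median Ezh2 fold was 3.11 and 2.75 and the median Runx1 fold 3.88 and 4.57. Width moves with this, with a median of 1448 bp near gene ends and 735 bp elsewhere, and its part in the difference was not tested. For H3K27me3 the medians were 2.55 and 2.22 near gene ends and 2.45 and 2.19 elsewhere.

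Ranks of the members were most alike between replicates for Runx1 and least for the mark. Across members, which share libraries and input and are no independent replicates, the Spearman correlation of folds between replicates was 0.90 for Runx1 (n = 1129), 0.75 for Ezh2 (n = 1159) and 0.66 for H3K27me3 (n = 1006). Between antibodies within replicates 1 and 2 it was 0.39 and 0.32 for Ezh2 with H3K27me3, 0.15 and 0.060 for Ezh2 with Runx1, and 0.064 and 0.0011 for H3K27me3 with Runx1. Across members the rank of the Runx1 fold thus bore little relation to that of the Ezh2 or H3K27me3 fold.

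**Figure D4:**
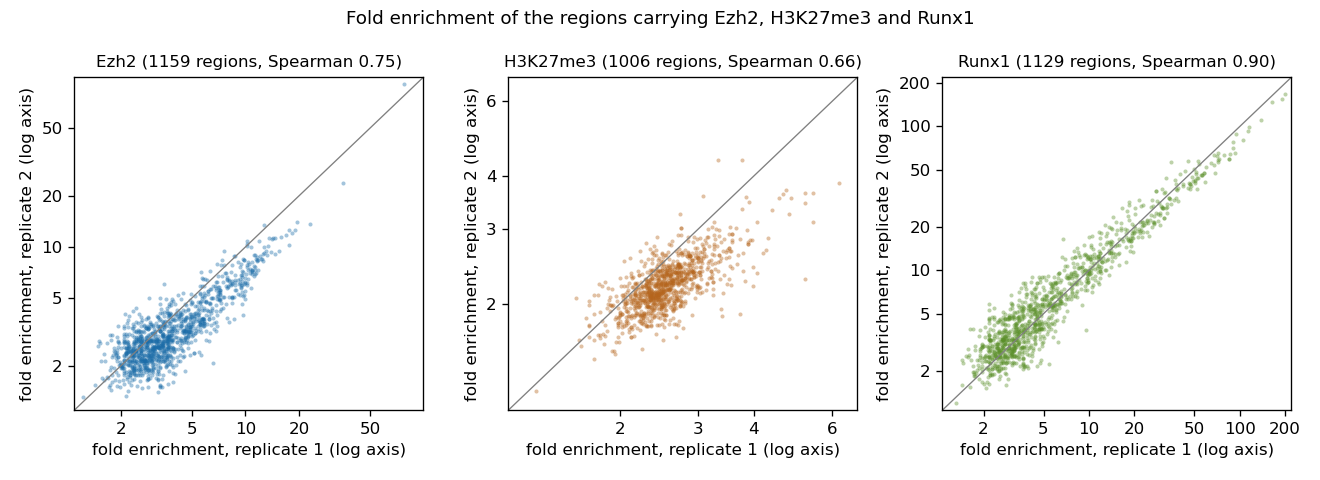
Fold enrichment over input in replicate 2 (y axis, log scale) against replicate 1 (x axis, log scale) for each member with a peak in both lists, 1 panel per antibody; the grey line marks equal values. Runx1 points reach 200 and 169 and lie close to the line, while H3K27me3 points stay below 6.3.

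Many members rested on weak peaks of the mark. In 978 members each of the 6 lists had a peak of its own, and in 181 a list gave none on the member: H3K27me3 replicate 2 in 138, H3K27me3 replicate 1 in 15, and Runx1 replicates 1 and 2 in 16 and 14. A q-value of at most 0.01 in both replicates was reached by 646 members for Ezh2, by 884 for Runx1 and by 135 for H3K27me3. All 6 lists reached it in 105 members, and a q of at most 1e-05 in 14. Broad and narrow peaks are scored differently, so the same q is not the same strictness.

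The highest Ezh2 fold of all members was at Bmi1, a subunit of Polycomb repressive complex 1, beside its neighbour Commd3 (chr2:18677057-18678890). There the Ezh2 fold was 77.4 and 90.4, the H3K27me3 fold 3.33 and 2.39 and the Runx1 fold 7.96 and 9.75 in replicates 1 and 2. Both Ezh2 values stood far above those of every other member. The fold of the mark was above the members' upper quartile of 2.745 in replicate 1 and close to that of 2.392 in replicate 2. The mark covered 852 of the 1834 bp. Next came Itsn1 with its neighbour Cryzl1 (chr16:91729210-91731394), at an Ezh2 fold of 35.3 and 23.7, an H3K27me3 fold of 3.08 and 3.59 and a Runx1 fold of 51.6 and 48.3. Here both proteins were strong. The member at the inner Sgk1 start, 5247 bp from the nearer end of that gene, followed with an Ezh2 fold of 22.9 and 13.6, an H3K27me3 fold of 4.39 and 3.34 and a Runx1 fold of 3.37 and 3.09. Itsn1 also held more members than any other gene, 5 in all, counting those within its body, with Runx1 folds of 45.5 and 57.5 on one 61045 bp inside its nearest end and below 10 on the others away from the start.

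Other members with a high Ezh2 fold lay at genes of varied function. At Galnt3, a starter enzyme of mucin-type O-glycosylation, the Ezh2 fold was 19.6 and 14.0, the H3K27me3 fold 5.23 and 3.66 and the Runx1 fold 5.96 and 8.21. At Wasf1, an actin regulator, beside the splicing factor gene Cdc40, the Ezh2 fold was 18.3 and 12.1, the H3K27me3 fold 6.22 and 3.86 and the Runx1 fold 6.16 and 6.85. Both places were also among the highest for the mark, and Wasf1 was the highest. At Ly75, an endocytic receptor of dendritic cells, the Ezh2 fold was 17.6 and 12.6 but the Runx1 fold 2.86 and 2.45. The remaining 3 of the highest 8 beside gene ends were Fam135a, Plekha6 and Tmem266, with mean Ezh2 folds of 15.7, 14.4 and 13.9.

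The highest H3K27me3 folds, after Wasf1, were beside Arhgap28 and Galnt3, and Rasal2 closed the highest 8. Rasal2, a RAS GTPase-activating protein, had an H3K27me3 fold of 4.66 and 3.63, an Ezh2 fold of 10.3 and 10.1 and a Runx1 fold of 3.36 and 3.76. Arhgap28, a GTPase-activating protein, had an H3K27me3 fold of 5.45 and 3.65, an Ezh2 fold of 5.13 and 3.84 and a Runx1 fold of 7.62 and 6.37. Replicate 1 of the mark was the higher one in both. The others of the highest 8 were Slc22a21, a carnitine transporter, the RNA-binding protein gene Raver2, Focad and D930020B18Rik, with mean H3K27me3 folds of 4.34, 4.28, 4.2 and 4.22. Ranked by their weakest q, the genes were Wasf1, Rasal2, Galnt3, Plekhh1, Focad, D930020B18Rik, Eml5 and Tanc2. In all 8 the weakest q was that of H3K27me3, so this ranking is one of the mark's own q. That 5 of the 8 were also among the highest for the mark is therefore no separate result.

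The highest Runx1 folds came with moderate Ezh2 folds. At Agrn, which encodes the matrix proteoglycan agrin, the Runx1 fold was 200 and 169, the Ezh2 fold 6.34 and 4.21 and the H3K27me3 fold 2.66 and 1.99. At Sgtb, a co-chaperone, beside the peptidase gene Nln, the Runx1 fold was 191.5 and 155, the Ezh2 fold 4.48 and 3.26 and the H3K27me3 fold 2.82 and 2.26. At Spsb1, a SOCS-box adaptor of ubiquitin ligases, the Runx1 fold was 163 and 147.5, the Ezh2 fold 7.08 and 5.78 and the H3K27me3 fold 2.61 and 2.14. None of these 3 was among the 8 members with the highest Ezh2 fold. The other 5 were Frmd6, Rhpn2, Tspan17, the activin receptor gene Acvr2b and the histone acetyltransferase gene Kat6b, with mean Runx1 folds of 124, 107, 103, 92.5 and 91.4. The mark was weak at most of these 8 in replicate 2. Its q-value there was 0.636 at Frmd6, 0.42 at Rhpn2 and Tspan17, 0.109 at Spsb1 and 0.0729 at Agrn. It was 0.0465 at Sgtb and 0.0434 at Acvr2b. Kat6b had the weakest q-value of the 8 in replicate 2, with the lowest H3K27me3 fold among them, 1.525. In replicate 1 the q-value was 0.0629 at Kat6b and at most 0.0372 at the others.

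**Figure D5:**
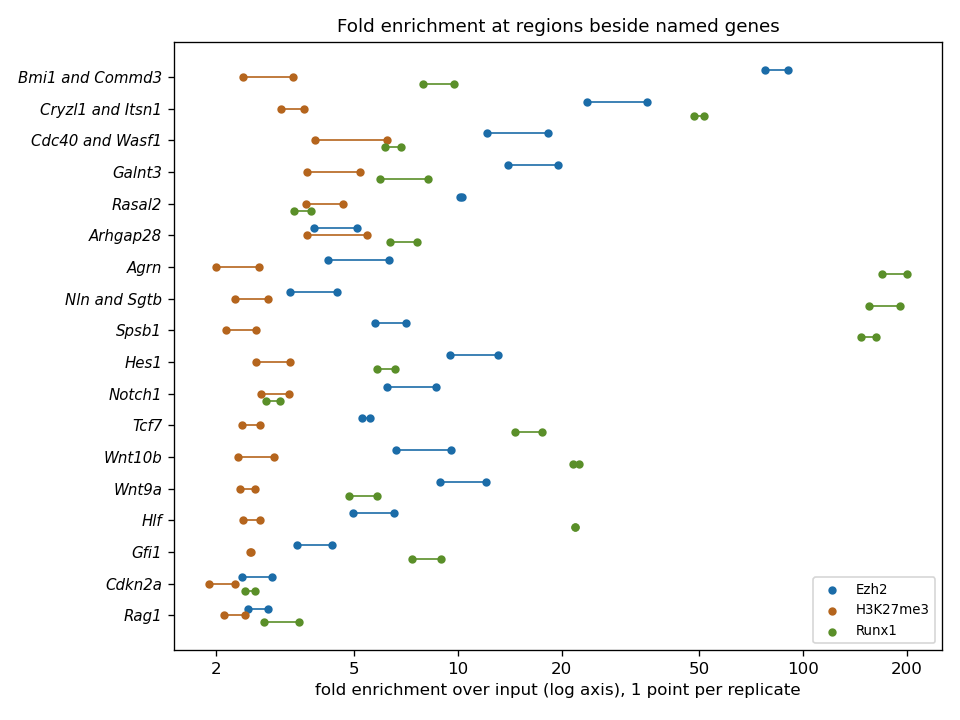
Fold enrichment over input (x axis, log scale) of Ezh2, H3K27me3 and Runx1 at 18 members named by the genes within 1 kb of them (rows), with 1 point per replicate and a line joining the pair. Bmi1 stands out for Ezh2 (77.4 and 90.4) and Agrn for Runx1 (200 and 169), while all H3K27me3 points lie below 6.3.

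In 14 gene lists of blood, Polycomb and developmental genes, 16 of 415 distinct genes (3.86%) had a member within 1 kb of an end, against 2.38% of all protein-coding genes. The T lymphoid list had 4 of 32, namely Notch1, Hes1, Tcf7 and Rag1, and the list of Wnt, Tgf-beta and other developmental signals had 5 of 37, namely Wnt3a, Wnt9a, Wnt10b, Fgf3 and Lfng. The stem and progenitor list had 3 of 32 (Gfi1, Hlf and Cebpb) and the Polycomb and trithorax list 2 of 32 (Bmi1 and Cbx8). There was 1 in the cytokine and kinase list (Socs2, 1 of 38), 1 among cell cycle inhibitors and tumour suppressors (Cdkn2a, 1 of 20) and 1 in the myeloid list (Gfi1, 1 of 26). The other 7 lists had none: 10 Runx genes and partners, 23 B lymphoid genes, 24 erythroid, megakaryocytic and mast cell genes, 39 Hox genes, 60 transcription factors of other tissues, 17 Kruppel-like factors and 35 ribosomal protein genes. A start away from the gene ends of the table is not counted: 1 more listed gene, Cbx7, another Polycomb chromobox gene, had a member centred within 1 kb of a listed start, with an Ezh2 fold of 3.44 and 2.64, an H3K27me3 fold of 2.46 and 2.13 and a Runx1 fold of 3.22 and 3.26. These lists are small and were not tested, and Ezh2 regions of at least 3000 bp at such genes are outside the rule.

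In the T lymphoid list the Notch genes had the stronger Ezh2 peaks. Hes1, a repressor switched on by Notch signals, had an Ezh2 fold of 13.1 and 9.51, an H3K27me3 fold of 3.27 and 2.61 and a Runx1 fold of 5.84 and 6.59. Notch1, the receptor that directs T cell commitment, had an Ezh2 fold of 8.68 and 6.23, an H3K27me3 fold of 3.26 and 2.70 and a Runx1 fold of 2.79 and 3.07. Tcf7, a transcription factor of early T cells, had the converse balance, with a Runx1 fold of 17.6 and 14.6, an Ezh2 fold of 5.57 and 5.30 and an H3K27me3 fold of 2.68 and 2.37. At Rag1, the recombinase of antigen receptor genes, the Ezh2 fold was only 2.83 and 2.48, with q-values of 0.0247 and 0.122. The Rag1 member is thus among the weak calls.

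Among developmental signals, Wnt9a had the highest Ezh2 fold, 12.1 and 8.89, with an H3K27me3 fold of 2.59 and 2.34 and a Runx1 fold of 4.85 and 5.85. Another member beside it (chr11:59304618-59306804) had the same H3K27me3 folds, an Ezh2 fold of 10.9 and 7.19 and a Runx1 fold of 2.94 and 3.56. Wnt10b had an Ezh2 fold of 9.57 and 6.63, an H3K27me3 fold of 2.94 and 2.31 and a Runx1 fold of 22.4 and 21.6. Both encode secreted Wnt ligands. Fgf3, a fibroblast growth factor, had an Ezh2 fold of 8.61 and 3.75, an H3K27me3 fold of 2.48 and 1.95 and a Runx1 fold of 8.36 and 7.19. At Lfng, a glycosyltransferase that modifies Notch receptors, the Ezh2 fold was 5.83 and 4.37. The Wnt3a member was weak, with Ezh2 q-values of 0.431 and 0.0117.

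Among blood regulators the strongest Runx1 peak was at Hlf, a leucine zipper factor of stem cells, at a Runx1 fold of 21.9 and 21.8, with an Ezh2 fold of 6.52 and 4.98 and an H3K27me3 fold of 2.68 and 2.38. Gfi1, a zinc finger repressor of stem and myeloid cells, had a Runx1 fold of 7.35 and 8.95, an Ezh2 fold of 4.34 and 3.44 and an H3K27me3 fold of 2.50 and 2.52. The mark covered 219 of the 1183 bp of the Gfi1 member, so it lay mostly outside. Cebpb, a leucine zipper factor of myeloid cells, had an Ezh2 fold of 2.95 and 2.32 and H3K27me3 q-values of 0.0297 and 0.135.

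Cbx8, the chromobox subunit of Polycomb repressive complex 1 that reads H3K27me3, had a Runx1 fold of 18.8 and 13.6, an Ezh2 fold of 4.90 and 2.32 and an H3K27me3 fold of 2.85 and 2.12. Socs2, a feedback inhibitor of cytokine receptors, had an Ezh2 fold of 7.34 and 6.72, an H3K27me3 fold of 3.36 and 2.29 and a Runx1 fold of 5.49 and 5.95. Cdkn2a, a locus of cell cycle inhibitors and a known Polycomb target, had low values for all 3. Its Ezh2 fold was 2.90 and 2.37, its H3K27me3 fold 2.27 and 1.90 and its Runx1 fold 2.60 and 2.42, and the H3K27me3 q-value of replicate 2 was 0.24.

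Members far from the listed ends of genes, some of them inside genes, could also be strong. Of the 145 members over 50 kb from a gene end, the highest Ezh2 folds were inside Rora (10.9 and 7.30), inside Dab2ip (9.49 and 5.95) and 60983 bp from Rmi1 (9.16 and 6.08). The Runx1 fold was 3.38 and 4.65 at the Rora member (chr9:69288723-69291376), 37.3 and 42.6 at the Dab2ip member (chr2:35661390-35663804) and 43.2 and 48.8 at the member near Rmi1 (chr13:58471417-58472848). Rora encodes a nuclear receptor and Dab2ip a GTPase-activating protein. These gene ends come from the RefSeq gene table, and a start inside a gene counts as far from its ends.

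Members touched 4 of 1005 listed miRNA hairpins, those of Mir5130, Mir574, Mir148a and Mir1199. The Mir148a member (chr6:51269667-51271487) had a Runx1 fold of 51.8 and 36.6, an Ezh2 fold of 7.86 and 5.73 and an H3K27me3 fold of 2.61 and 2.76. Runx1 was strong there in both replicates. The 2 arms of its hairpin, RefSeq on GRCm38.p6, minus strand, are shown for identity with the seed, bases 2 to 8, in capitals.
mmu-miR-148a-3p: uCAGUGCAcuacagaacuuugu
mmu-miR-148a-5p: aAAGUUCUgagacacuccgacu

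The share of members differed between chromosomes. It lay between 1.28% of Ezh2 regions on chromosome 9 and 2.86% on chromosome 8 among the autosomes, and was 10.3% on chromosome X, where 11 of only 107 Ezh2 regions were members. On X 18.7% of Ezh2 regions touched Runx1. The X members included those nearest Ccdc120, Syn1, Apln, Bcorl1, Hmgb3, Efnb1, Pja1 and Iqsec2. The highest Runx1 fold among all 11 was at Bcorl1, a corepressor gene, at 25.1 and 17.2, with an Ezh2 fold of 6.96 and 3.98. With 11 members on X the share there is imprecise.

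1 member, picked out after its values were seen, had the lowest folds of all, yet its weakest q over the 6 lists was the most significant of any member's. It is 466 bp wide, at chr2:98666698-98667163 and 1035258 bp from the nearest gene end, that of Lrrc4c. Its fold was 1.22 and 1.32 for Ezh2, 1.30 and 1.25 for H3K27me3 and 1.32 and 1.19 for Runx1, while its smallest -log10 q over the 6 lists was 206, against 10.7 for Wasf1, the next. Without it 1158 members remained, the share within 1 kb of a gene end was 37.1%, and no median fold moved by more than its replicate spread.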

How the data were processed

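Per the labels, 6 libraries (Ezh2, H3K27me3 and Runx1, 2 replicates each) have a peak list, and 2 inputs were not analysed here. Build mm10, MACS2 2.0.10, Bowtie2 2.2.1, SAMtools and Picard are listed in the submitters' processing notes, without roles or parameters. The authors deposited 1 list per library, narrow peaks for Ezh2 and Runx1 and broad peaks for H3K27me3, with a whole-number score (not used), a fold enrichment as a linear ratio, and p- and q-values on the -log10 scale. Weak peaks are included, and lists were not pooled. Read depth is unknown, and its effect on which peaks were called cannot be given.

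Peaks were merged and intersected with Python 3.11.15, pandas 2.3.3 and NumPy 2.4.6, and plotted with matplotlib 3.10.9. The procedure was checked on simulated peaks with planted members. Genes, transcript starts, promoters and miRNAs came from RefSeq on GRCm38.p6, whose coordinates are those of mm10. Promoters and strand covered 79.9% of the protein-coding genes. Members, lists and rules were chosen with earlier results of these data known. The genes named were those at the 8 members highest in mean Ezh2, Runx1 or H3K27me3 fold, the 8 with the strongest weakest q among members within 1 kb of a gene end, listed genes with a member, the 3 far members of highest Ezh2 fold, and the 3 regions nearest the width limit on each side. The genes with sequences or hairpins, some X members and H3K27me3 regions with several members were named beside these. Some genes are not reported here. The spread of a value is the SD of the values from the lists numbered 1 alone and 2 alone, or, for folds and summit distances, of the medians in the 2 replicates.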

Additional observations from a re-analysis of the deposited data

How the results depend on the processing

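Over 9 results and 20 alternatives, 98 of 158 values moved by less than the spread between replicates (for counts, by less than 1.5 times) and 60 moved more; the cause was not tested except where the setting itself gives fewer or more regions. Asking for 100 bp of overlap moved none of them.

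Under a width limit of 1000 bp there were 606 members (1.03% of Ezh2 regions), 22.0% at gene ends, 141 genes, median folds of 2.62 for Ezh2 and 4.10 for Runx1, a summit distance of 141 bp and TGTGGT in 12.4% of windows. Keeping peaks of q at most 0.01 in every list before merging gave 119 members, 63.9% at gene ends, 94 genes, median folds of 6.67 for Ezh2, 2.95 for H3K27me3 and 6.03 for Runx1, a summit distance of 256 bp and the motif in 13.9%. At 1e-05 these were 15 members (0.848%), 66.7%, 12 genes, 8.64, 4.03, 5.33, 241 bp and 16.7%. With q at most 0.01 for Ezh2 and Runx1 alone, 551 members (6.33%), 56.8% at gene ends, Ezh2 fold 4.30, Runx1 fold 6.56 and 236 bp. The share at gene ends thus rose under each stricter q.

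From the lists numbered 1 alone came 3805 members, 19.5% at gene ends, 837 genes, a Runx1 fold of 2.69 and a summit distance of 113 bp. From those numbered 2 alone came 1759 members, 27.4%, a Runx1 fold of 3.28, 151 bp and the motif in 11.8%. Leaving out 1 library at a time gave between 1030 and 2233 members, 0.883% and 3.44% of Ezh2 regions, 22.0% and 38.9% at gene ends, 494 and 606 genes, Ezh2 folds of 2.79 and 3.29, H3K27me3 folds of 2.198 and 2.44, Runx1 folds of 2.69 and 4.68, summit distances of 140 and 197 bp, and the motif in 10.2% and 11.6%. Without Runx1 replicate 2 the counts of members, their share, the share at gene ends and the Runx1 fold moved by over 1.5 times, to 2233, 3.44%, 22.0% and 2.69, and without Ezh2 replicate 1 or 2 the share of Ezh2 regions did, to 0.883% and 0.932%.

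With bases shared by both replicates 43.8% lay at gene ends and the Ezh2 fold was 3.62. Windows of 500 and 5000 bp around gene ends gave 24.3% and 52.4%. An overlap of at least 50% of the shorter region gave a summit distance of 156 bp, no width limit gave the motif in 9.49%, and the 7-letter motif TGTGGTT was in 2.70%. Leaving out the chromosome 2 region of lowest q, chosen after seeing the data, moved no value beyond the spread. No paired analysis was possible because these results come from no test. Depth is unknown, so a missing peak may be a weak one.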
